A study of Mus musculus with 9 samples.

Results

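The cardiac myosin genes are 7 genes for the heavy and light chains of the motor that drives contraction of heart muscle: the heavy chains Myh6, Myh7 and Myh7b, the ventricular light chains Myl2 and Myl3 and the atrial light chains Myl7 and Myl4. They were taken by symbol from 34198 listed symbols, and all 7 were found. Myh7b was chosen by its CPM, which was far lower in the Cd11bDTR libraries, so its values in comparisons with that group are given as a description with no test. The other 6 were taken by name, but with earlier results of these data known, as were the gene lists used below. All 7 stood at 1 CPM (counts scaled by the authors to a fixed total per library) or more in all 9 libraries, so the filter on low values removed none of them.

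RNA was sequenced from atrioventricular (AV) nodes, the small knot of heart muscle that slows and passes on the impulse between atria and ventricles, dissected under the microscope from C57BL/6J mice. Of 9 libraries, 3 came from Cd11bDTR mice, labelled as depleted of macrophages, 3 from Cx3cr1 Cx43-/- mice and 3 from control mice, and each library is named below by the number in its label (7 to 9, 4 to 6 and 1 to 3). In Cd11bDTR mice the promoter of Itgam, the gene of CD11b, drives a receptor for diphtheria toxin in myeloid cells. In Cx3cr1 Cx43-/- mice connexin 43 (Gja1) is deleted in cells that express the fractalkine receptor Cx3cr1, which in the heart are mostly macrophages. The labels give no toxin dose or time, no age or sex, no allele carried by the controls or by all groups, and no word on pooling of mice. Per the design text, the 3 libraries within a group are biological replicates.

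A myosin molecule has a pair of heavy chains, which hold the ATP-splitting head, and each heavy chain carries an essential and a regulatory light chain at its neck. In adult mouse heart Myh6 encodes the fast alpha heavy chain and Myh7 the slow beta heavy chain, whose share rises with thyroid hormone loss and with load. Myh7b is an ancient relative expressed at low level. Myl7 and Myl4 are the regulatory and essential chains of atrial muscle, and Myl2 and Myl3 those of ventricular muscle, so the light chains also mark chamber identity.

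Each heavy chain gene holds a microRNA gene inside it, and these microRNAs are known to act back on myosin gene expression. The mature strands are shown because the reads over the microRNA gene inside Myh7 fell in Cd11bDTR nodes. They are RefSeq sequences of the GRCm38.p6 build, written 5′ to 3′ with the seed, bases 2 to 8, in capitals.
mmu-miR-208a-3p: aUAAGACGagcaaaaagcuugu
mmu-miR-208b-3p: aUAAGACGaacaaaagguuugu
mmu-miR-499-5p: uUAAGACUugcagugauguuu
The first lies inside Myh6 at chr14:54949072-54949093 on the minus strand, the second inside Myh7 at chr14:54975710-54975731 on the minus strand, and the last inside Myh7b at chr2:155622893-155622913 on the plus strand. The strands of the Myh6 and Myh7 microRNAs share all 7 seed bases and 19 of 22 bases, with the substitutions G10A, A16G and C18U (base of miR-208a-3p first, counted from its 5′ end). The seed of miR-499-5p has 6 of 7 bases equal to that of either.

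Reads in listed genes took 28.3% to 44.0% of the CPM denominator in Cd11bDTR libraries, 46.8% to 47.9% in Cx3cr1 Cx43-/- libraries and 42.8% to 48.7% in control libraries. The part of this difference in the results below was not tested, and results are therefore given on 3 scalings: CPM as deposited, columns brought to a common total of listed genes, and median-of-ratios scaling. On these the median log2 change of all genes tested, Cd11bDTR against control, was -0.49, -0.18 and -0.03. Macrophage markers checked the depletion label. Of 11 tested, 9 were called lower in Cd11bDTR against control (median log2 change -2.53), beside 33% of all genes on the deposited scale. Fcgr1 went the other way, averaging 5.1 CPM in Cd11bDTR and 3.06 CPM in control, and Lyve1 overlapped between these groups. The summed level of the 11 markers was 63.3 to 72.1 CPM in Cd11bDTR libraries, 388.8 to 519.6 CPM in Cx3cr1 Cx43-/- libraries and 250.8 to 396.0 CPM in control libraries. Gja1 stood at 179, 229 and 250 CPM in Cx3cr1 Cx43-/- libraries and at 246, 163 and 211 CPM in control libraries. The groups overlapped, and a value of the whole node does not check a deletion in macrophages. Of nodal genes, the pacemaker channel gene Hcn4 averaged 2.75 ± 1.0 CPM in Cd11bDTR, 17.0 ± 2.48 CPM in Cx3cr1 Cx43-/- and 17.9 ± 2.09 CPM in control (SD, n = 3 each), and the nodal repressor Tbx3 averaged 13.8 ± 2.36, 31.9 ± 5.65 and 35.1 ± 4.34 CPM in the same groups. The calcium channel gene Cacna1g averaged 24.5 ± 4.92, 89.2 ± 12.8 and 106.5 ± 7.78 CPM. Shox2, a factor of the sinus node, overlapped between groups at 18.2, 11.4 and 3.94 CPM in Cd11bDTR libraries, 15.2, 10.5 and 10.5 CPM in Cx3cr1 Cx43-/- libraries and 10.1, 7.21 and 7.55 CPM in control libraries.

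Of the heavy chains, Myh6 and Myh7 fell in Cd11bDTR nodes on the deposited scale, and Myh7b was at its lowest there. Of the light chains, regulatory Myl2 and Myl7 fell and essential Myl3 and Myl4 did not pass the test, a difference not itself tested. Together that is 4 of 6 tested myosins called lower and 0 called higher, with a median log2 change of -0.85, beside a background of 33% of 12925 genes called lower, 3.23% called higher and 36.2% called in either direction. After rescaling to a common total 2 of the 6 were called lower, beside 19.7% of all genes, and with median-of-ratios scaling 1 of the 6, beside 13.1% called lower and 13.3% called higher. Without the filter on low genes limma called 0 of the 6, with adjusted p of 0.120 for Myl2 to 0.372 for Myh6 among the 4. The share of all genes called in that fit is not given here, so this count has no background beside it. Relative to the median of all genes, the changes of the 6 ran between -0.84 (Myh6) and 0.36 (Myl4). In bulk tissue, fewer muscle cells and less myosin RNA per cell cannot be told apart. Calls are those of limma at a Benjamini-Hochberg adjusted p under 0.05.

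Myh6, the main heavy chain of adult mouse heart, stood at 4592, 3017 and 2698 CPM in Cd11bDTR libraries, at 9194, 10505 and 9487 CPM in Cx3cr1 Cx43-/- libraries and at 10444, 7338 and 7748 CPM in control libraries. The 3 Cd11bDTR libraries were the lowest of the 9 and overlapped neither other group. The log2 change was -1.33 against control (SE 0.32, limma adjusted p = 0.00326). After rescaling to a common total it was -0.99 (limma adjusted p = 0.00132), and under median-of-ratios scaling -0.84 (0.00983), so that of the 4 called myosins Myh6 was the one called on all 3 scalings.

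Myh7, the slow heavy chain that is abundant in fetal ventricle, stood at 362, 204 and 158 CPM in Cd11bDTR libraries, at 343, 553 and 596 CPM in Cx3cr1 Cx43-/- libraries and at 379, 479 and 376 CPM in control libraries. Each Cd11bDTR library lay below each control library, but library 7 lay above Cx3cr1 Cx43-/- library 4. The log2 change against control was -0.85 (SE 0.27, limma adjusted p = 0.0181), and it did not pass after rescaling to a common total (-0.51, limma adjusted p = 0.0796) or with median-of-ratios scaling (-0.36, limma adjusted p = 0.238). The call also ended without control library 2 and without Cd11bDTR library 8 or 9 (limma adjusted p = 0.0703, 0.0693 and 0.0975). Myh6 and Myh7 lie side by side on chromosome 14 and are near relatives: 20.2% of the 50-base words of Myh6 transcripts also occur in Myh7 transcripts, against 0% in Myh7b transcripts. The labels do not say how such reads were counted.

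Myh7b stood at 3.23, 1.94 and 2.02 CPM in Cd11bDTR libraries, at 34.8, 40.6 and 35.9 CPM in Cx3cr1 Cx43-/- libraries and at 42.3, 37.8 and 41.3 CPM in control libraries. Every Cd11bDTR library was more than 10-fold below every library of the other groups, and the fitted log2 change was -3.85 against control and -3.72 against Cx3cr1 Cx43-/-. These values chose the gene and are a description. As a ratio to Myh6 within a library, which no scaling can move, Myh7b was 0.0703%, 0.0643% and 0.0748% of the sum of both genes in Cd11bDTR libraries, 0.377%, 0.385% and 0.377% in Cx3cr1 Cx43-/- libraries and 0.403%, 0.513% and 0.530% in control libraries. Myh7b was thus lower in Cd11bDTR also per unit of Myh6, by a log2 difference of -2.79 against control, given with no test. In Cx3cr1 Cx43-/- the ratio also lay below that of each control library, by -0.34.

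**Figure D1:**
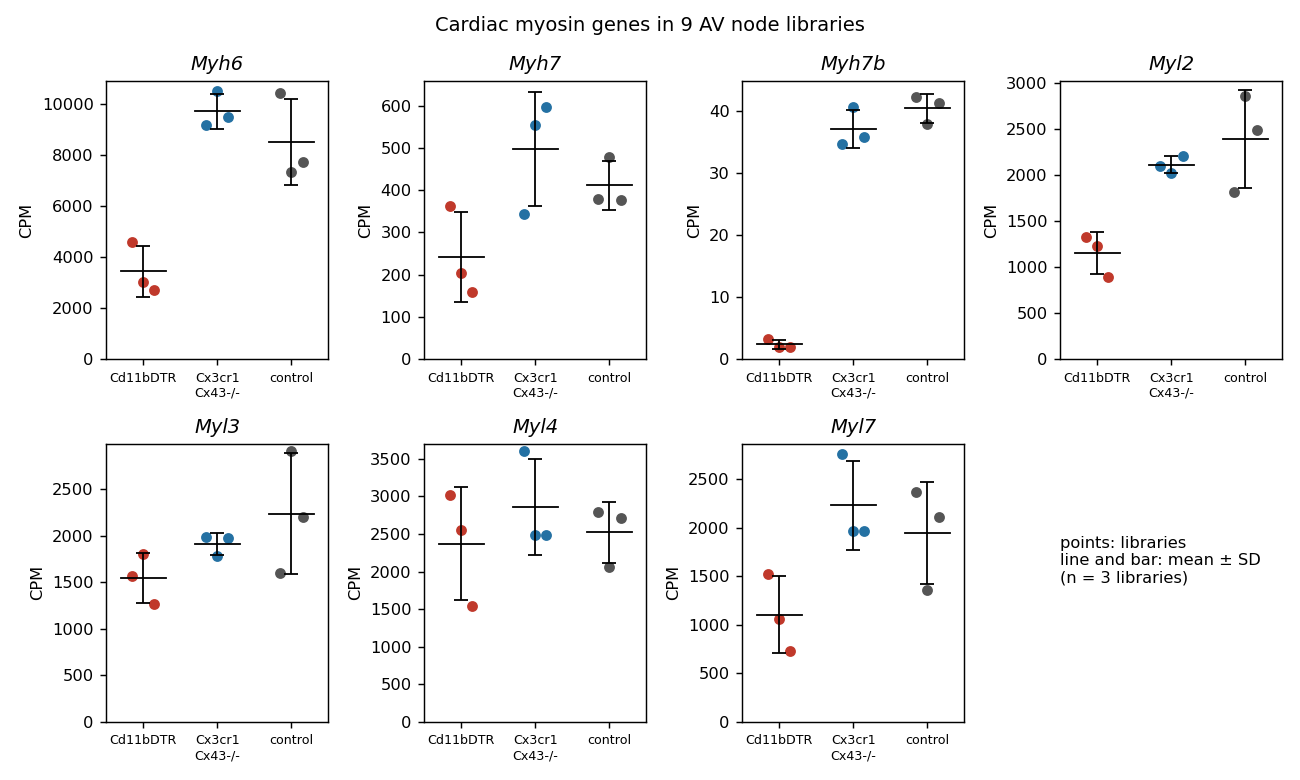
CPM of each myosin gene (vertical axes, from 0) in the 3 Cd11bDTR, 3 Cx3cr1 Cx43-/- and 3 control libraries, with points for libraries and a line and bar for mean ± SD. All Cd11bDTR points lie below all control points for Myh6, Myh7 (narrowly), Myh7b (chosen by these values) and Myl2, and the groups overlap for Myl3, Myl4 and Myl7. The share of all genes separated in this way is not given here.

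Myl2, the ventricular regulatory light chain whose phosphorylation tunes cross-bridge force, stood at 1324, 1234 and 896 CPM in Cd11bDTR libraries, at 2097, 2027 and 2210 CPM in Cx3cr1 Cx43-/- libraries and at 1821, 2866 and 2492 CPM in control libraries. The Cd11bDTR libraries were again the lowest of the 9. The log2 change against control was -1.05 (SE 0.27, limma adjusted p = 0.00424), -0.71 after rescaling to a common total (limma adjusted p = 0.00938) and -0.56 under median-of-ratios scaling (limma adjusted p = 0.0578), which ended the call.

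Myl3, the ventricular essential light chain, stood at 1567, 1808 and 1269 CPM in Cd11bDTR libraries, at 1984, 1781 and 1982 CPM in Cx3cr1 Cx43-/- libraries and at 1604, 2910 and 2207 CPM in control libraries. All 3 groups overlapped, with control library 1 inside the Cd11bDTR range. The log2 change of -0.51 against control (SE 0.27, limma adjusted p = 0.145) did not pass the test, and with median-of-ratios scaling it was -0.01.

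Myl7, the atrial regulatory light chain, stood at 1523, 1056 and 730 CPM in Cd11bDTR libraries, at 2764, 1964 and 1967 CPM in Cx3cr1 Cx43-/- libraries and at 2369, 1359 and 2116 CPM in control libraries. Control library 2 was below Cd11bDTR library 7, so these groups overlapped. The log2 change against control was -0.84 (SE 0.30, limma adjusted p = 0.0294), and it did not pass after rescaling to a common total (-0.51, limma adjusted p = 0.0630) or with median-of-ratios scaling (-0.35, limma adjusted p = 0.218). The call also ended in a fit of only these 2 groups (limma adjusted p = 0.0624) and without control library 1 or 3 or Cd11bDTR library 8 or 9 (limma adjusted p = 0.153, 0.113, 0.0643 and 0.0952).

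Myl4, the atrial essential light chain, which embryonic muscle also uses, stood at 3019, 2552 and 1544 CPM in Cd11bDTR libraries, at 3599, 2485 and 2486 CPM in Cx3cr1 Cx43-/- libraries and at 2788, 2060 and 2719 CPM in control libraries. Cd11bDTR library 7 was the second highest of all 9 and library 9 the lowest. The log2 change of -0.13 against control (SE 0.30, limma adjusted p = 0.746) changed sign to 0.21 after rescaling to a common total and to 0.36 with median-of-ratios scaling, neither past the test. Within the Cd11bDTR group, library 9, whose listed genes took the smallest part of the denominator, was the lowest for 6 of the 7 myosins.

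**Figure D2:**
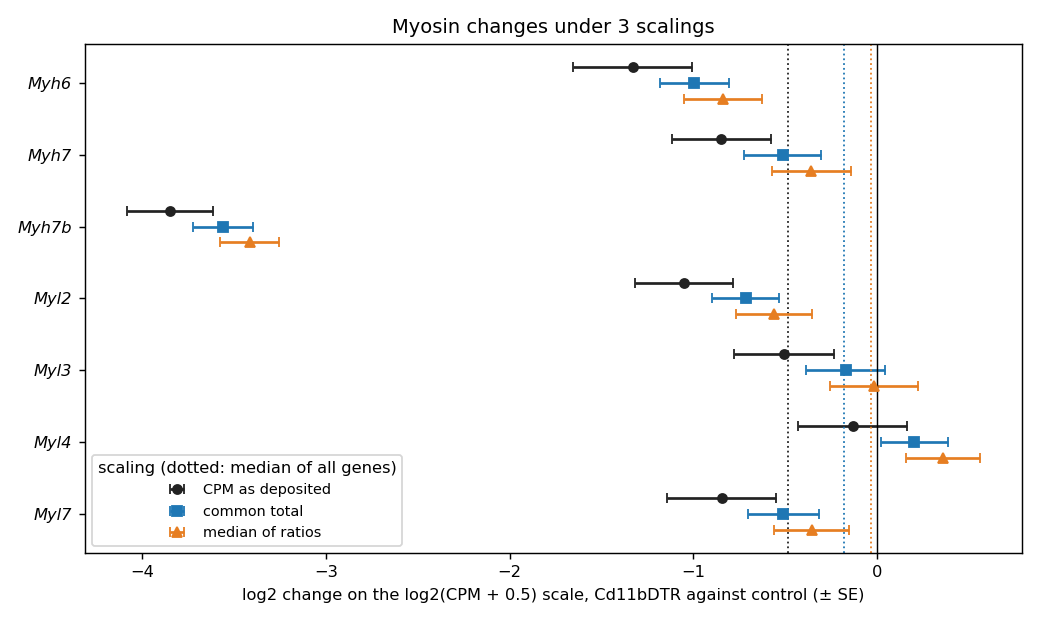
Log2 change of each myosin on the log2(CPM + 0.5) scale, Cd11bDTR against control (horizontal axis, ± SE), on 3 scalings, with dotted lines at the median of all genes on each. The order of the genes is kept as the points move right: Myh7b lies at -3.85, -3.56 and -3.42, Myh6 below the other 5, and Myl4 crosses 0.

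Against Cx3cr1 Cx43-/- nodes, which share the Cd11bDTR libraries with the comparison above, 4 of 6 tested myosins were called lower in Cd11bDTR, where 40.7% of all genes were called lower and 43.4% in either direction. Myh6 changed by -1.54 (limma adjusted p = 0.000891), Myh7 by -1.09 (0.00311), Myl2 by -0.89 (0.0103) and Myl7 by -1.06 (0.00700) on the log2 scale. All 4 calls held after rescaling to a common total, beside 21% of all genes called lower. With median-of-ratios scaling Myh6 was called (-0.97, limma adjusted p = 0.00425) and the other 3 were not, beside 13% of all genes. Myl3 (-0.32, limma adjusted p = 0.341) and Myl4 (-0.30, limma adjusted p = 0.418) did not pass, and both changed sign with either scaling. The Myl2 call ended without Cx3cr1 Cx43-/- library 6 (limma adjusted p = 0.0509).

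Deletion of connexin 43 in Cx3cr1-expressing cells came with no called change of a myosin. Limma called 0 of 7 in Cx3cr1 Cx43-/- against control, 0 had an unadjusted p under 0.05, and 0 were called with robust empirical Bayes, beside a background of 0.00774% of genes called (1 gene) and 191 genes with an unadjusted p under 0.05. The log2 changes were 0.21 for Myh6, 0.24 for Myh7, -0.13 for Myh7b, -0.16 for Myl2, -0.19 for Myl3, 0.17 for Myl4 and 0.22 for Myl7, with SEs of 0.23 to 0.32. Control library 2 set part of this spread. It was the lowest control for Myh6, Myl7 and Myl4 and the highest for Myh7, Myl2 and Myl3, and without it the change of Myl7 was -0.02 and that of Myl3 0.02. In the same library the atrial hormone gene Nppa stood at 195 CPM, against 966 and 531 CPM in control libraries 1 and 3. The part of atrial tissue in the dissections in these differences was not tested.

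Ratios of paired chains within a library show the balance of isoforms free of scaling. Myh7 made up 6.39% ± 0.895 of the CPM of Myh6 and Myh7 together in Cd11bDTR, 4.84% ± 1.17 in Cx3cr1 Cx43-/- and 4.75% ± 1.32 in control (SD, n = 3 each). By library these shares were 7.31%, 6.34% and 5.52% in Cd11bDTR, 3.59%, 5.0% and 5.91% in Cx3cr1 Cx43-/- and 3.50%, 6.13% and 4.62% in control, and the groups overlapped. The log2 ratio of Myh7 to Myh6 differed by 0.48 between Cd11bDTR and control (exact permutation p = 0.2, two-sided, 3 libraries against 3). The ventricular to atrial ratio of the regulatory chains, Myl2 to Myl7, differed by -0.21 (exact permutation p = 0.8), and that of the essential chains, Myl3 to Myl4, by -0.38 (exact permutation p = 0.5). With 1 library left out, the Myh7 to Myh6 difference ran from 0.27 (without control library 1) to 0.69 (without control library 2). The Myl3 to Myl4 difference ran from -0.67 (without control library 1) to -0.026 (without control library 2), and it was -0.19 without Cd11bDTR library 7. Over 3 ratios and 3 comparisons, 9 tests in all, every Benjamini-Hochberg adjusted p was 0.75 or 0.9, the groups overlapped in each, and 3 against 3 cannot give an exact p below 0.1.

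Regulatory chains were also set against the essential chain of the same chamber, in ratios formed after the values were seen and so given with no test. The log2 ratio of Myl7 to Myl4, regulatory to essential in atrial muscle, was -0.99, -1.27 and -1.08 in Cd11bDTR libraries, -0.38, -0.34 and -0.34 in Cx3cr1 Cx43-/- libraries and -0.23, -0.60 and -0.36 in control libraries. The log2 ratio of Myl2 to Myl3, regulatory to essential in ventricular muscle, was -0.24, -0.55 and -0.50 in Cd11bDTR libraries, 0.08, 0.19 and 0.16 in Cx3cr1 Cx43-/- libraries and 0.18, -0.02 and 0.17 in control libraries. Both regulatory chains were lower per unit of their essential partner in each Cd11bDTR library than in any other library, by -0.71 and -0.54 against control. Myh6 was also lower per unit of Actc1, the cardiac actin of the thin filament, by a log2 difference of -0.80 against control, with no overlap.

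**Figure D3:**
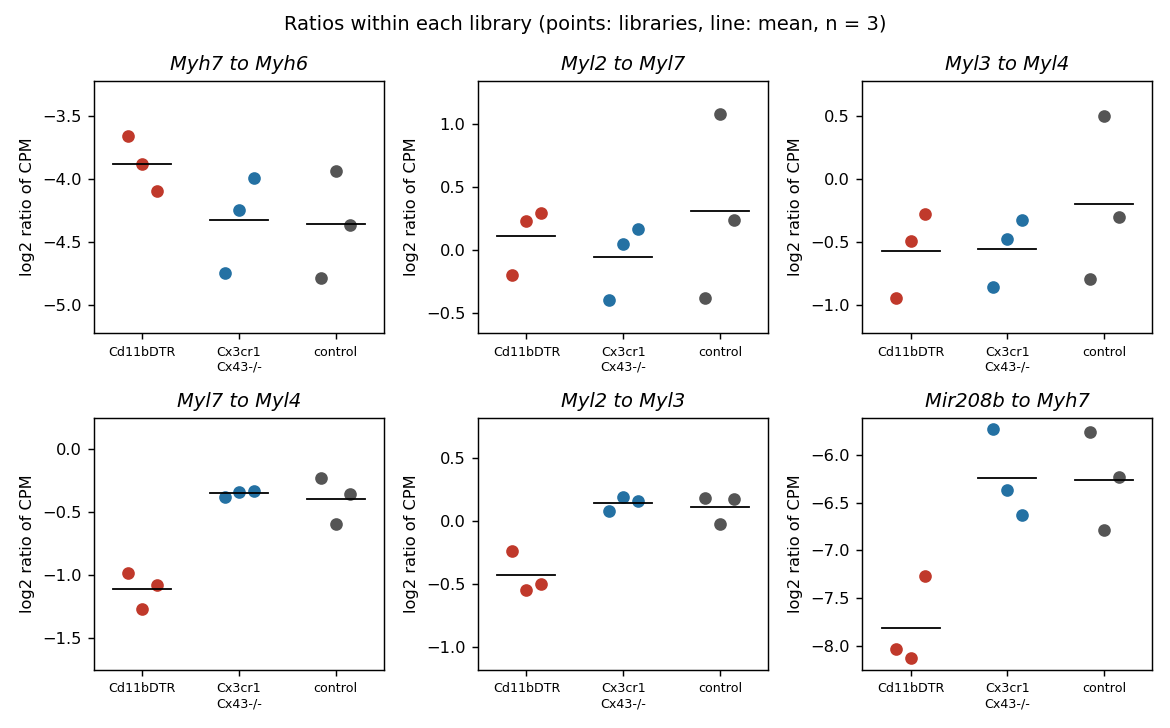
Log2 ratios of CPM within each library (vertical axes) for 5 pairs of chains and for Mir208b to its host Myh7, in Cd11bDTR, Cx3cr1 Cx43-/- and control, with points for libraries and a line for the mean of 3. The upper ratios of chamber isoforms overlap between groups, while the Cd11bDTR points lie apart and lower for Myl7 to Myl4, Myl2 to Myl3 and Mir208b to Myh7.

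Per length, the light chains stood above the heavy chains in every group. Levels were divided by the length of a transcript of each gene, and they compare genes only as far as that transcript is the one expressed. Mean CPM per kb in Cd11bDTR, Cx3cr1 Cx43-/- and control was 1870, 3782 and 3302 for Myl7, 1579, 2896 and 3282 for Myl2, 2515, 3029 and 2675 for Myl4 and 1652, 2044 and 2391 for Myl3. Myl4 was the highest in Cd11bDTR and Myl7 in the other 2 groups, but neighbours in this order overlapped within each group, except Myl2 above Myl3 in Cx3cr1 Cx43-/-. Myh6 followed with 562, 1591 and 1392 CPM per kb, Myh7 with 38.7, 79.8 and 66.0 and Myh7b with 0.389, 6.02 and 6.57, with no overlap between these 3 heavy chains in any group. Of all CPM in listed genes the 7 myosins together took 2.82%, 2.62% and 2.58% in Cd11bDTR libraries, 4.27%, 4.04% and 4.01% in Cx3cr1 Cx43-/- libraries and 3.99%, 3.98% and 3.90% in control libraries.

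Reads over Mir208b, the microRNA gene inside Myh7, fell in Cd11bDTR on all 3 scalings. They stood at 1.38, 0.73 and 1.02 CPM in Cd11bDTR libraries, at 6.45, 6.68 and 6.04 CPM in Cx3cr1 Cx43-/- libraries and at 6.96, 4.33 and 5.01 CPM in control libraries, with no overlap between Cd11bDTR and either other group. The log2 change against control was -1.94 (SE 0.32, limma adjusted p = 0.000103), -1.69 after rescaling to a common total (limma adjusted p = 0.000522) and -1.56 under median-of-ratios scaling (0.000843). Per unit of Myh7 the log2 ratio differed by -1.55 between Cd11bDTR and control, without overlap and with no test, since the ratio was formed after the values were seen. Such libraries of longer RNA do not measure the mature microRNA, and reads of the microRNA gene cannot be told apart from those of unspliced Myh7 RNA around it. Mir208a inside Myh6 did not exceed 1.06 CPM in any library, and Mir499 inside Myh7b was at 0 in all libraries except 0.07 CPM in Cx3cr1 Cx43-/- library 6, and neither was tested.

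Genes beside the heavy chains on the chromosome, picked after their values were seen, were not called in Cd11bDTR against control. Gss, which encodes glutathione synthetase and lies next to Myh7b, stood at 15.7, 12.8 and 4.4 CPM in Cd11bDTR libraries, at 7.62, 9.75 and 10.5 CPM in Cx3cr1 Cx43-/- libraries and at 9.29, 10.7 and 9.98 CPM in control libraries. Its Cd11bDTR libraries spread to both sides of the others (log2 change -0.04). Trpc4ap, on the other side of Myh7b, changed by -0.46 (limma adjusted p = 0.0733), close to the median of all genes, though against Cx3cr1 Cx43-/- it was called lower (-0.52, limma adjusted p = 0.0405). Ngdn, next to Myh7, changed by 0.10 (limma adjusted p = 0.784), and Cmtm5, next to Myh6, by -0.70 (limma adjusted p = 0.284) at 0 to 1.47 CPM over all libraries.

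**Figure D4:**
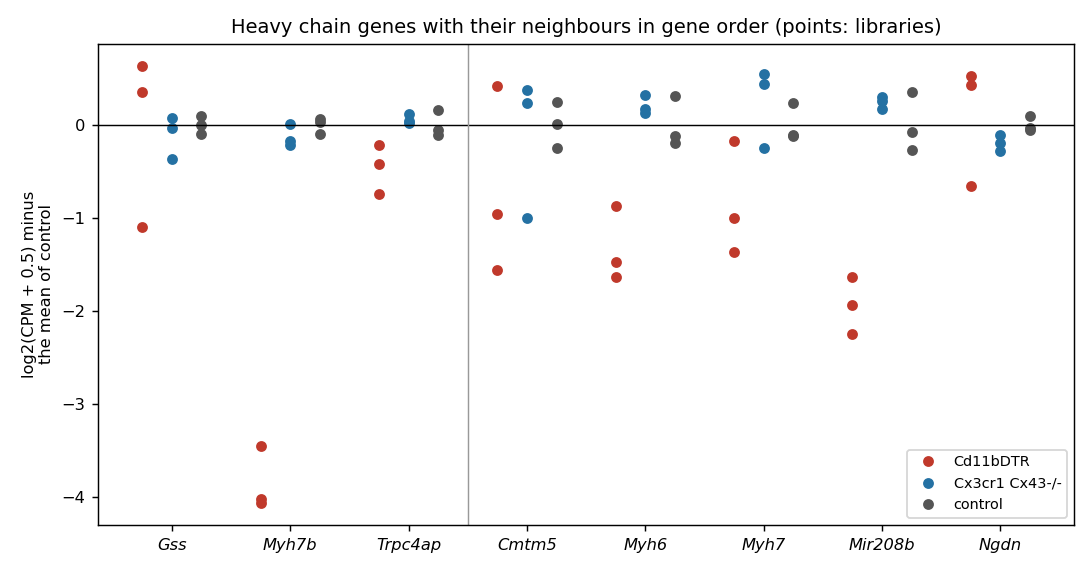
Log2(CPM + 0.5) relative to the control mean (vertical axis) for Myh7b and its neighbours and, right of the grey line, for Myh6, Myh7 and theirs, with points for Cd11bDTR, Cx3cr1 Cx43-/- and control libraries. Myh7b, Myh6, Myh7 and Mir208b lie below 0 in all 3 Cd11bDTR libraries, and Gss and Ngdn lie on both sides of 0.

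The start regions of Myh7b and Myh6 are shown because these genes had the largest differences of the 7. They are RefSeq windows of the GRCm38.p6 build, 250 bases before to 50 bases after the gene's start, on the strand of the gene.
Myh7b, chr2:155610993-155611292, plus strand: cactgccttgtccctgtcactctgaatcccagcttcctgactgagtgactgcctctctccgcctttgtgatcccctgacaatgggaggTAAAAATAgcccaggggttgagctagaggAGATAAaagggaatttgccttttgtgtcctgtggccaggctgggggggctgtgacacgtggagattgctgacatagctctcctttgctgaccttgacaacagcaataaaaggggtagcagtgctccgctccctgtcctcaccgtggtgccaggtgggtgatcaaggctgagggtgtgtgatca
Myh6, chr14:54966558-54966857, minus strand: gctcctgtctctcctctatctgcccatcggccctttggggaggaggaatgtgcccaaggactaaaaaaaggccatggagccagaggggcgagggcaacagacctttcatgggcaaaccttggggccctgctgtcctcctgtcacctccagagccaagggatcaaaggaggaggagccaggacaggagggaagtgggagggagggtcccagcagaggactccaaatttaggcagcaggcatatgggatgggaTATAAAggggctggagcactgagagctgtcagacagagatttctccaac
Capitals in the Myh7b window mark TAAAAATA, the core bound by MEF2 factors, at -162 and AGATAA, bound by GATA factors, at -133, and those in the Myh6 window mark TATAAA at 1, counted from the gene's start. Both strands were searched for these letters and for CATTCC, bound by TEAD factors, the E-box CANNTG and the nuclear receptor half-site AGGTCA, and none of the matches in these windows overlap. Of 32851 windows of this length, 2.72% hold the MEF2 core, 11.2% the GATA letters, 13.6% the TATA letters, 14.7% the TEAD letters, 16.3% the half-site and 72.3% an E-box. The half-site was found in Myh7b at -46, the TEAD letters in Myh6 at -206, and the MEF2 core in no window of the other 6 myosins. The half-site, the GATA letters and TATAAA also occur in windows of Myl2, and the TEAD letters in those of Myh7, Myl3 and Myl7. These motifs were chosen with the sequences in view, and a match is no evidence of binding.

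Of the factors known to act on myosin genes, 17 of 33 tested fell in Cd11bDTR against control and 1 rose, beside 33% of all genes called lower and 3.23% called higher, and with a median log2 change of -0.78 beside -0.49 for all genes. With median-of-ratios scaling 11 fell and 2 rose, beside 13.1% of all genes called lower and 13.3% called higher. The same shares of all genes stand behind each list count of Cd11bDTR against control below on the deposited and median-of-ratios scales. After rescaling to a common total, 19.7% of all genes were called lower and 1141 of 12856 genes higher. Some genes stand on several lists, such as Irx4, Mybphl and Myh11, so the list counts are not separate evidence. Thra, the main thyroid hormone receptor of heart muscle, which acts on Myh6 and Myh7 in opposite directions, stood at 23.3, 17.5 and 21.5 CPM in Cd11bDTR libraries, at 74.0, 74.7 and 73.2 CPM in Cx3cr1 Cx43-/- libraries and at 83.5, 72.5 and 73.4 CPM in control libraries. Cd11bDTR overlapped neither other group (log2 change -1.86 against control, SE 0.20, limma adjusted p = 4.1e-07). Its partner Rxrg changed by -1.65 (limma adjusted p = 1.26e-05), the ventricular repressor Irx4 by -2.11 (limma adjusted p = 1.65e-05) and the metabolic receptor Esrra by -1.39 (limma adjusted p = 0.000205). The gene that rose was Dio2, the enzyme that makes active thyroid hormone, at 13.2, 18.7 and 12.9 CPM in Cd11bDTR libraries and 6.67, 9.11 and 7.97 CPM in control libraries (0.86, limma adjusted p = 0.0250); it was named after its value was seen.

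The partners of myosin in the sarcomere were counted in the same way. Of 18 tested binding proteins, kinases and chaperones of myosin, 11 were called lower and 0 higher (median log2 change -0.81), beside 33% of all genes called lower, and median-of-ratios scaling gave 6 lower and 1 higher, beside 13.1%. Mybpc3, the cardiac myosin binding protein C, averaged 630 ± 155 CPM in Cd11bDTR, 1668 ± 56.6 CPM in Cx3cr1 Cx43-/- and 1695 ± 37.0 CPM in control (SD, n = 3 each; -1.45, limma adjusted p = 0.000117). The atrial relative Mybphl changed by -1.87, Smyd1, a methyltransferase needed for thick filament assembly, by -1.42, and Ppp1r12b, a subunit of the phosphatase of the regulatory light chain, by -1.30. Of 11 thin filament genes, 2 were called lower, the capping protein gene Tmod1 (-1.72) and the slow troponin I gene Tnni1 (-1.45), and 0 higher, with a median of -0.53, a smaller share than the 33% of all genes called lower. With median-of-ratios scaling 2 were lower and 3 higher.

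Heart muscle and its neighbouring cells also express other myosins, of smooth muscle and nonmuscle kinds. Of 4 other class II heavy chains tested, the nonmuscle and smooth muscle forms Myh10 (-0.99), Myh14 (-0.92) and Myh11 (-0.88) were called lower and Myh9 (-0.36) was not, beside 33% of all genes, and 2 were called lower with median-of-ratios scaling, beside 13.1%. Of 6 other light chains tested, Myl6b (-1.05) was called lower and 0 higher, with a median of 0.05. With median-of-ratios scaling 0 were lower and 3 higher, beside 13.3% of all genes called higher, among them Myl9 (0.77) and Myl12a (0.70). In Cx3cr1 Cx43-/- against control, limma called 0 of the 125 tested genes on all the lists used here, beside 1 of all 12925 genes. Of the 125 list genes, 6 had an unadjusted p under 0.05, beside 191 of the 12925.

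Genes listed as markers of ventricular muscle were mostly lower as well. The libraries are of whole AV node, so levels of such listed genes cannot be assigned to ventricular, atrial or nodal muscle cells. Of 10 ventricular cardiomyocyte markers, 8 were called lower in Cd11bDTR against control (median -1.36), beside 33% of all genes, with Gpr22 at -2.80, Kcnip2 at -2.62 and Kcne1 at -2.23, while median-of-ratios scaling gave 8 lower and 1 higher, beside 13.1% and 13.3% of all genes. Their summed level was 1605 to 2406 CPM in Cd11bDTR libraries, 3520 to 4034 CPM in Cx3cr1 Cx43-/- libraries and 3895 to 4163 CPM in control libraries. Of 10 atrial markers tested, 3 were called lower (Gja5 at -1.86, Mybphl at -1.87 and Dkk3 at -0.79, median -0.36), a share near that of all genes, and 2 with median-of-ratios scaling, with summed levels of 898 to 2167, 1918 to 2202 and 1037 to 2703 CPM in the same groups. Of these markers Bmp10 was at 0 in all 3 Cd11bDTR libraries, in 2 of 3 Cx3cr1 Cx43-/- libraries and in 2 of 3 control libraries. Of markers of other cells, 3 of 6 endothelial genes were called lower on each scaling. Of 7 fibroblast and 5 adipocyte genes, limma called 0 on the deposited scale and 1 of each higher on both other scalings. On the deposited scale 0 and 1 of them had an unadjusted p under 0.05, beside 6055 of 12925 genes. Of 8 smooth muscle markers 2 were called lower and 2 higher, and 1 lower and 4 higher on both other scalings. Of 12 skeletal muscle markers 3 were tested, 1 called lower and 1 higher. The lower was Ckm (223 CPM in Cd11bDTR and 421 CPM in control) and the higher Tnni2, at low level (2.35 and 0.667 CPM). Myh1 and Myod1 did not exceed 0.19 CPM in any library. The part of the tissue's cell makeup in the myosin values was not tested.

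**Figure D5:**
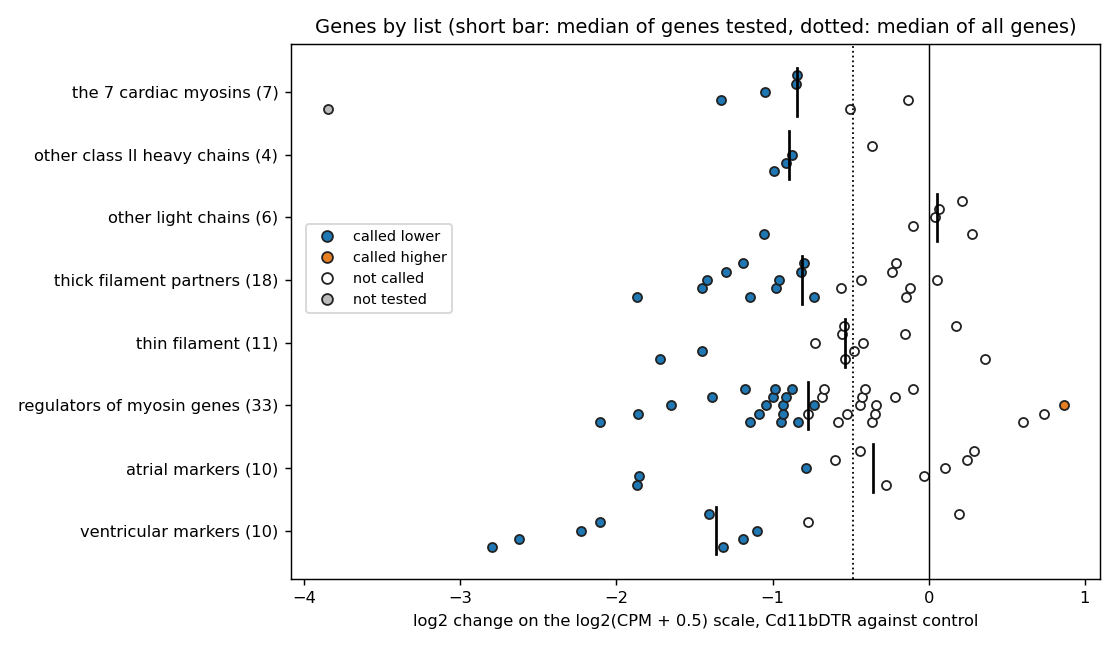
Log2 change on the log2(CPM + 0.5) scale, Cd11bDTR against control on the deposited scale (horizontal axis), for the 7 myosins and the tested genes of 7 lists, each point a gene, blue called lower, orange called higher, white not called, grey not tested, with a short bar at each list's median. The myosin median (-0.85) lies left of the dotted median of all genes (-0.49). So do those of the ventricular markers (-1.36), other class II heavy chains (-0.90), thick filament partners (-0.81), regulators (-0.78) and, narrowly, thin filament (-0.53). The medians of the atrial markers (-0.36) and the other light chains (0.05) lie to its right.

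Genes whose levels ran most like a myosin over the 9 libraries were found by Pearson r of log2(CPM + 0.5) over 9369 genes with a mean of at least 5 CPM, as a description. Closest to Myh7b were Igsf1 (r = 0.998), Fam78a (0.997), Epm2a (0.996) and Thra (0.996), and Igsf1 averaged 5.09 CPM in Cd11bDTR, 34.9 CPM in Cx3cr1 Cx43-/- and 34.6 CPM in control. Closest to Myh6 were Mettl7a1 (0.998), 2310015A10Rik (0.997), Dapk1 (0.996) and Mut (0.996). For Myh7 they were Bdh1 (0.977), Jmjd1c (0.974), Edem3 (0.972) and Narg2 (0.972), for Myl2 Tpt1-ps3 (0.984), Ndufaf1 (0.972), Pdss2 (0.970) and Mrps9 (0.968), and for Myl7 Kctd17 (0.982), Smox (0.982), Bcam (0.981) and 4930455C21Rik (0.981). The 9 points share the 3 groups and the denominators of their libraries, so such values are high for any gene low in Cd11bDTR. Among the myosins, r ran from 0.19 between Myl4 and Myl3 to 0.96 between Myh7b and Myh6, and it was 0.90 between Myl7 and Myh6.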

How the data were processed

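Per the labels' protocols, DNase-treated total RNA from dissected AV nodes went into 9 libraries that keep the strand. The authors deposited CPM with 2 decimals. The submitters' processing notes name STAR 2.3.0, HTSeq 0.6.0, edgeR and mm9 without their roles. The annotation and the treatment of reads shared by genes are not given in the sources used here. A single read was worth 0.0154 to 0.0192 CPM, so the lowest myosin value rested on about 101 reads. Beyond such approximate values read counts were not recovered, and count models were not used.

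Log2(CPM + 0.5) of 12925 genes that reached 1 CPM in 3 or more libraries entered a linear model of all 9 libraries in limma 3.58.1 (R 4.3.3, trended empirical Bayes, two-sided, Benjamini-Hochberg adjusted over all genes). Fold changes on this scale understate those of low genes. The fit was run on simulated data with independent values and no shift of whole libraries. That setting is unlike the Cd11bDTR comparisons, so the simulation does not vouch for the calls in them. Ratios were compared by exact permutation tests (scipy 1.17.1). Median-of-ratios scaling used 12766 genes above 0 in every library. Lengths and shared words came from GENCODE M21 transcripts, and sequences from RefSeq tables of GRCm38.p6, matched by symbol; 0 pairs of libraries held identical values.

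The 7 myosins and the 14 gene lists were chosen with earlier results of these data known. From each list, up to 4 tested genes with the smallest p are named. Other settings tried were a pseudocount of 0.1 or 2, leaving out the filter or setting it at 5 CPM on average, both rescalings, fits of 2 groups, robust empirical Bayes and each library left out in turn. Figures were drawn with matplotlib 3.10.9.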

Additional observations from a re-analysis of the deposited data

How the results depend on the processing

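Myosins called in Cd11bDTR against control numbered 4, but 0 without a filter on low genes, 2 after rescaling to a common total and 1 with median-of-ratios scaling; against Cx3cr1 Cx43-/- they numbered 4, but 0 without a filter and 1 with median-of-ratios scaling. Without a filter the limma adjusted p of Myh6, Myh7, Myl2 and Myl7 against control was 0.372, 0.128, 0.120 and 0.254. The cause was not tested, and the share of all genes called without a filter in the Cd11bDTR comparisons is not given here. Signs turned in Myl4 against control (0.21 and 0.36 with the 2 rescalings) and, against Cx3cr1 Cx43-/-, in Myl3 (0.067 and 0.25) and Myl4 (0.087 and 0.27). Genes called in Cx3cr1 Cx43-/- against control numbered 1, with 0 at a pseudocount of 0.1, 2 at a pseudocount of 2 and 0 without a filter, and those in Cd11bDTR against Cx3cr1 Cx43-/- 5604, with 3362 under median-of-ratios scaling. Leaving out 1 library in turn gave 2667 (without control library 1) to 6241 genes and 2 to 4 myosins in Cd11bDTR against control, 0 to 2 genes and 0 myosins in Cx3cr1 Cx43-/- against control, and 3284 (without Cx3cr1 Cx43-/- library 5) to 7036 genes and 3 to 4 myosins in Cd11bDTR against Cx3cr1 Cx43-/-. The 2 myosins left without Cd11bDTR library 8 or 9 were Myh6 and Myl2. Under it Myl4 ran from -0.33 to 0.15 in Cd11bDTR against control, and in Cx3cr1 Cx43-/- against control Myl3 ran from -0.41 to 0.024, Myl4 from -0.0080 to 0.26 and Myl7 from -0.024 to 0.38. The Myh7 to Myh6 ratio ran from -0.18 to 0.25 in Cx3cr1 Cx43-/- against control, the Myl2 to Myl7 ratio from -0.55 to 0.18 in Cd11bDTR against control, -0.72 to 0.010 in Cx3cr1 Cx43-/- against control and -0.0012 to 0.32 in Cd11bDTR against Cx3cr1 Cx43-/-, and the Myl3 to Myl4 ratio from -0.17 to 0.17 in Cd11bDTR against Cx3cr1 Cx43-/-. No paired analysis was possible because the labels number the libraries 1 to 9 with no number shared between groups. With 3 libraries a group, ratios had no reach below an exact p of 0.1, and the lowest value of Mir208b rested on about 38 reads.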
